A study of Homo sapiens with 18 samples.

Results

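The action of dihydrotestosterone (DHT) that remained in the presence of a high dose of enzalutamide was examined in LNCaP, a human prostate carcinoma cell line that responds to androgens. The comparison set the 3 arrays of cells given 100 nM DHT together with 10 µM enzalutamide (the combination) against the 3 arrays of vehicle cells, 6 of the 18 arrays of the series, over every probe set. Samples were chosen by their treatment label. Vehicle was the solvent DMSO, and all cells had been kept in RPMI 1640 medium with 5% hormone-depleted fetal bovine serum and were treated for 16 h. The other groups, also of 3 arrays each, received 100 nM DHT, 1 or 10 µM enzalutamide, or 100 nM DHT with 1 µM enzalutamide. No label states that the 3 samples of a group came from separate cultures, so the spread behind every p-value is that between arrays and may be technical. All cells were of a single tumour line, which limits the groups as a model of prostate tissue.

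DHT acts through a nuclear receptor that enters the nucleus when it binds hormone and acts on genes near its binding sites in chromatin. Enzalutamide is an antiandrogen that competes with the hormone and hinders nuclear entry and DNA binding. In prostate epithelium androgens are known for raising secreted proteases such as prostate-specific antigen and genes of lipid synthesis, and for lowering others, among them enzymes that conjugate androgens.

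The 2 genes with the largest rise under the combination were KLK2 and KLK3, neighbouring kallikrein genes on chromosome 19. Their upstream sequences are shown because they share a window that holds, in KLK3, the letters AGAACA of an androgen response half-site. The sequences are the 250 bases before each gene's start on the plus strand of GRCh38.p14, from RefSeq, at chr19:50854665-50854914 for KLK3 and chr19:50873189-50873438 for KLK2. Capitals mark a 15-base window, which lies -170 to -156 bases from the start in KLK3 and -176 to -162 bases from it in KLK2.
KLK3: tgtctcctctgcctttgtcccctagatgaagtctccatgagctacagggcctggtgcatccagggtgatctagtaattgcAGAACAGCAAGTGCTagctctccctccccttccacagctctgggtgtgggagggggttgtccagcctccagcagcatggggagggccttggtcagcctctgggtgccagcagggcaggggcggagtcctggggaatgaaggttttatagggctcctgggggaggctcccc
KLK2: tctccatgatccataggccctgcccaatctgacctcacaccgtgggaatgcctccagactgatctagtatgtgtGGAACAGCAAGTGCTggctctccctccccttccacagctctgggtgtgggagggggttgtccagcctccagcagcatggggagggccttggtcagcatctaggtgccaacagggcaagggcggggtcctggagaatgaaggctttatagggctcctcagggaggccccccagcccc
The KLK2 window differs from that of KLK3 by 1 substitution, A1G, with positions counted from 1 at the 5′ end of the window. Aligned without gaps, 185 of 244 bases of the 2 regions were identical (75.8%). AGAACA on either strand was found in the 250 upstream bases of 12.4% of 35116 promoters in the table and of 11.2% of the 9683 tested genes with a promoter there. It was found in 14 of 147 genes called higher under the combination (9.52%) and in 25 of 149 genes called lower (16.8%). Of the 30 genes with the largest changes, 20 had a promoter in the table and 6 held the half-site, namely KLK3, PMEPA1, GLMP, SI, FGF13 and SLC44A1. A match of letters is a description of the sequence and is not a measured binding site.

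Levels are log2 signals, so a difference of 1 is a 2-fold change. A gene was represented by its brightest probe set, a gene was tested where that probe set had a mean log2 signal of at least 6.98 (the brightness limit, the median of all probe sets), and 12755 genes were tested. A gene was called at a limma adjusted p under 0.05. Array medians lay between 6.87 and 7.18, and the correlation over probe sets was 0.947 to 0.953 between combination and vehicle arrays, 0.951 to 0.952 among vehicle arrays and 0.956 to 0.962 among combination arrays. The 3′ to 5′ signal ratio of ACTB, a sign of RNA length, was 1.42 to 1.59 on the 6 arrays. It was 4.50 on DHT replicate 2 and 6.04 on enzalutamide 1 µM replicate 2. All 10 prostate luminal markers lay above the brightness limit in both groups, among them FOLH1, a membrane peptidase (mean 14.65 in vehicle and 14.48 in the combination), KRT18, a luminal keratin (13.07 and 13.00), and HOXB13, a prostate homeobox factor (11.96 and 11.80). The leukocyte marker PTPRC was at 3.67 and 4.78, the basal keratin KRT14 at 2.68 and 2.65, and the endothelial cadherin CDH5 at 3.30 and 3.36, all under the limit. The summed signal of the luminal list, as log2, was 16.37 to 16.43 on vehicle arrays and 16.45 to 16.69 on combination arrays. Of the other marker lists 3 of 5 basal, 4 of 7 fibroblast, 2 of 5 leukocyte and 2 of 4 endothelial markers lay above the limit. Their summed signals ran on vehicle and combination arrays respectively from 9.73 to 10.01 and from 9.65 to 10.12 for basal markers, 8.73 to 9.26 and 8.94 to 9.08 for leukocyte markers, and 9.08 to 9.58 and 9.50 to 9.59 for endothelial markers. For fibroblast markers the values were 12.56 to 12.66 in vehicle and 12.25 to 12.42 in the combination, without overlap. All arrays were labelled as a single cell line. In such bulk RNA, fewer cells of a type and less RNA per cell cannot be told apart.

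Under the combination, 200 genes rose and 203 fell against vehicle. The largest rises were those of the kallikrein proteases KLK2 and KLK3, and the largest falls those of DEFB124, a β-defensin gene, and MAN1A1, a glycan-trimming mannosidase. The 403 called genes were 3.16% of those tested, with 1.57% higher and 1.59% lower, and 2082 genes had an unadjusted p under 0.05. Of the called genes 43 differed by at least 2-fold, 27 of them higher and 16 lower. The groups did not overlap in any of the 403, and they did not overlap in 30.0% of all tested genes. The median difference over all genes was -0.0013. DHT alone called 995 genes higher (7.8%) and 1061 lower (8.32%) against the same vehicle arrays. Leaving out 1 of the 6 arrays gave 201 to 295 calls, a change of over 1.5 times for every array but combination replicate 1 and lowest without vehicle replicate 2, and after centring each array on its median it was 167, of which 64.7% were higher. The count was 769 without the 2 arrays of high ACTB ratio, which belong to neither group but enter the shared estimate of spread. Over all 54613 probe sets 437 were called, 59 of them without a single gene symbol. The authors' deposited table marked 1388 probe sets for this pair, 740 higher in vehicle and 648 higher in the combination.

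**Figure D1:**
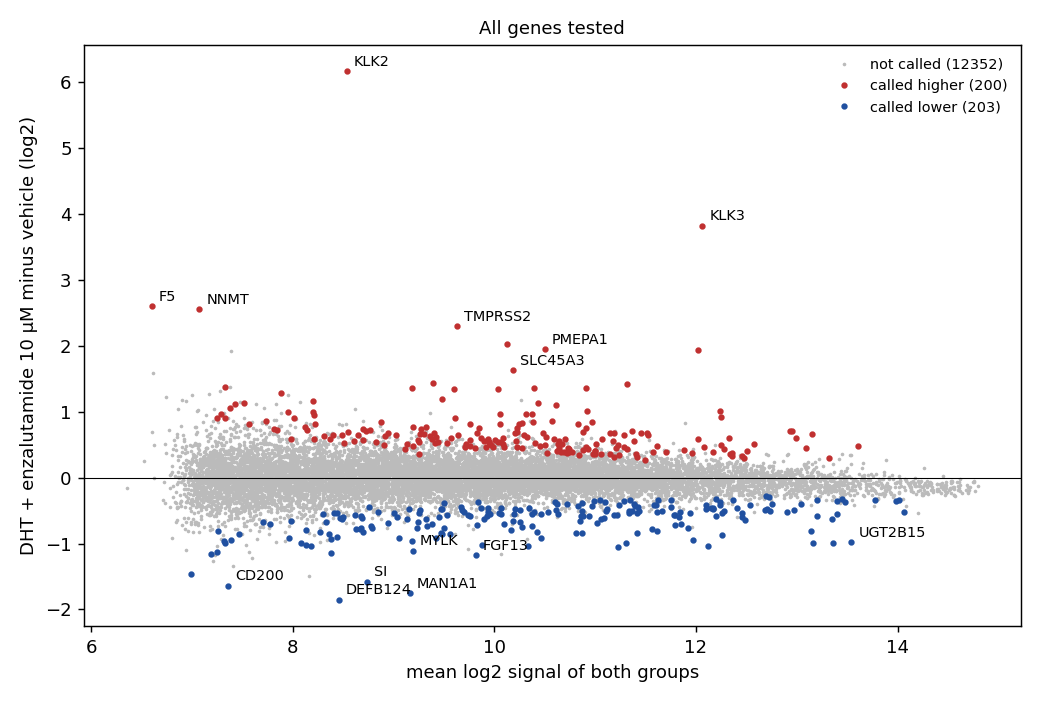
Difference between the combination and vehicle (y axis, log2) against the mean log2 signal of both groups (x axis) for the 12755 tested genes, with called genes in colour. KLK2 and KLK3 stood at 6.16 and 3.82, and no called lower gene was beyond DEFB124 at -1.85.

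KLK3 encodes prostate-specific antigen, the secreted protease used as a blood marker of prostate cells. Its log2 signal was 10.01, 10.05 and 10.38 on the vehicle arrays and 14.15, 13.88 and 13.88 on the combination arrays. The groups were far apart, and the difference of 3.82 ± 0.23 (SE) was a 14.1-fold rise (adjusted p = 1.16e-08). With DHT alone the arrays read 14.18, 14.10 and 14.31, a range that overlapped the combination. The combination differed from DHT alone by -0.22 ± 0.23 (adjusted p = 0.616), for which no difference was called. Enzalutamide at 10 µM without DHT gave 11.46, 11.13 and 11.53, above every vehicle array, and the combination exceeded those values by 2.60 (adjusted p = 1.38e-06). The other 2 KLK3 probe sets differed between combination and vehicle by 4.19 and 1.55.

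KLK2, a trypsin-like kallikrein known to activate prostate-specific antigen, gave 4.02, 6.13 and 6.20 in vehicle and 11.78, 11.47 and 11.59 under the combination. The vehicle arrays lay under the brightness limit and spread more than the others, so the fitted difference of 6.16 ± 0.39 (adjusted p = 1.59e-08) rests on a faint baseline. With DHT alone the signals were 13.79, 13.74 and 13.64, all above the combination, which was lower by 2.11 (log2 difference -2.11, adjusted p = 0.00155). The other KLK2 probe sets differed from vehicle by 3.81, 3.44 and 0.05, of which only the first had a mean above the limit. Cross-hybridisation between the similar KLK2 and KLK3 transcripts was not tested. KLK4, another kallikrein, rose by 0.74 ± 0.19 (adjusted p = 0.0398), a call lost when each of 5 of the 6 arrays was left out in turn.

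TMPRSS2 and SLC45A3 rose to levels under those of DHT alone. TMPRSS2, a surface serine protease, read 8.29, 8.56 and 8.60 in vehicle and 11.13, 10.50 and 10.70 under the combination. That rise of 2.30 ± 0.25 (adjusted p = 1.33e-05) stood beside a shortfall of -2.33 from DHT alone (adjusted p = 2.98e-06), whose arrays read 13.19, 12.98 and 13.15. SLC45A3, a solute carrier also known as prostein, went from 9.51, 9.37 and 9.23 to 11.05, 10.93 and 11.00, a rise of 1.63 ± 0.11 (adjusted p = 2.36e-08), and stood below DHT alone by a log2 difference of -0.87 (adjusted p = 1.93e-05). The vehicle and combination arrays did not overlap for either gene.

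PMEPA1, a membrane protein that dampens TGF-β signalling, rose by 1.94 ± 0.15 (adjusted p = 2.28e-07) and stayed below DHT alone by a log2 difference of -1.57. Its other 3 probe sets differed from vehicle by less, at 0.85, 0.98 and 0.32. ABCC4, a pump for organic anions, rose by 1.43 ± 0.12 (adjusted p = 4.81e-07), and GREB1, a receptor-associated cofactor, rose by 1.44 ± 0.17 (adjusted p = 3.67e-05). For GREB1 the other 2 probe sets, with means under the brightness limit, differed by -0.04 and -0.18. F5, coagulation factor V, read 6.47, 5.05 and 4.38 in vehicle and 7.93, 7.92 and 7.84 under the combination (2.60 ± 0.37, adjusted p = 0.000303). NNMT, which methylates nicotinamide, read 6.45, 4.49 and 6.45 in vehicle and 8.25, 8.31 and 8.49 under the combination (2.55 ± 0.40, adjusted p = 0.000939). Both vehicle means were under the brightness limit, as was that of TRGC2. Others among the largest rises were MGC13170 (2.03), TRGC2 (1.37), GLMP (1.36), KCNN2 (1.35), AADAT (1.35) and CENPN (1.35). Of these CENPN encodes a centromere protein, KCNN2 a potassium channel and AADAT an aminotransferase. The other 2 GLMP probe sets differed by 0.24 and 0.54. TRGC2 had no other probe set, and signal from related transcripts in its probe set was not tested.

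**Figure D2:**
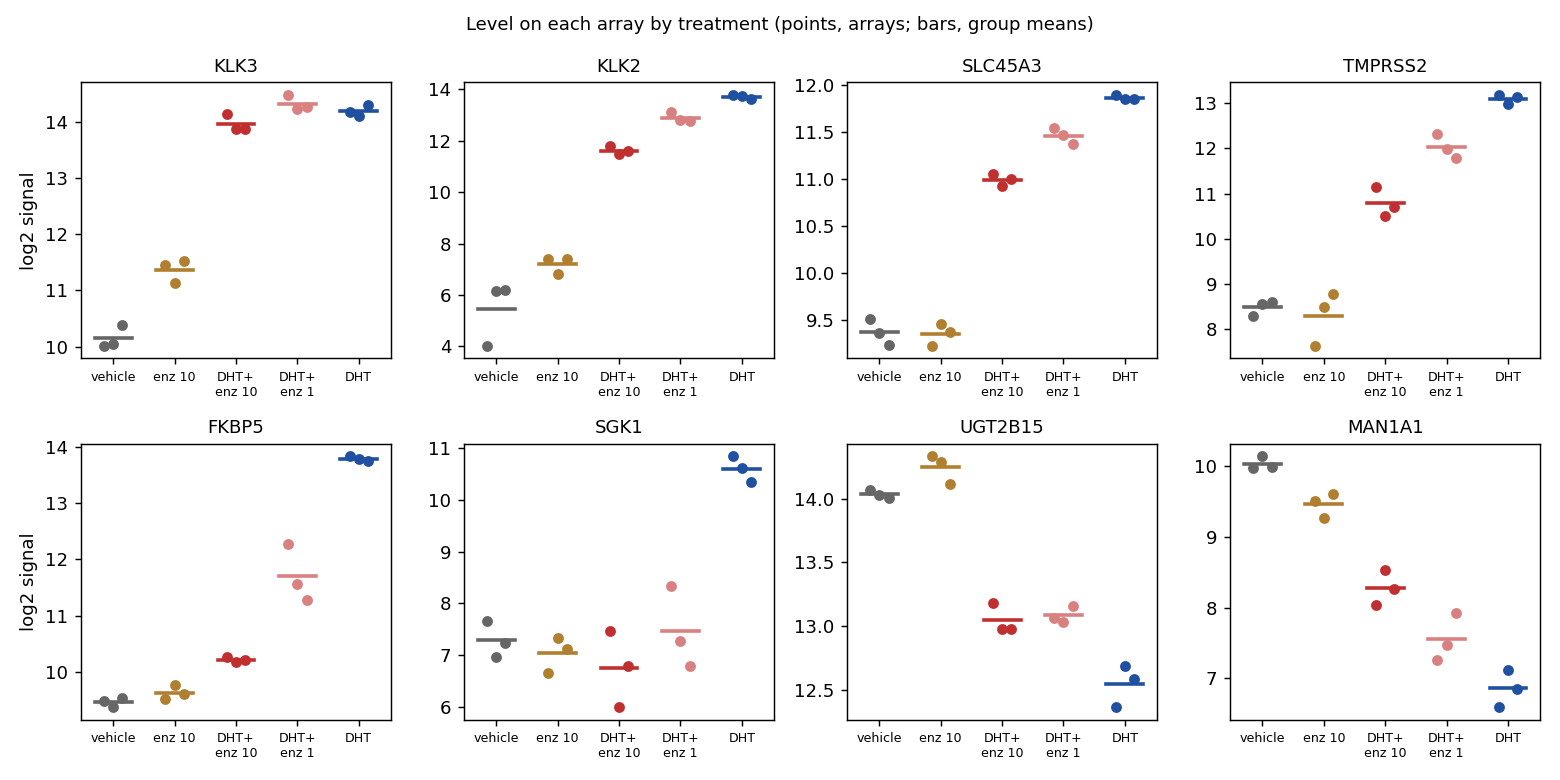
Log2 signal (y axis) on each array for 8 genes in 5 treatments (x axis), points for arrays and bars for group means, enz standing for enzalutamide with its dose in µM. KLK3 under the combination overlapped DHT alone. FKBP5 at 10.18 to 10.27 lay above vehicle and under DHT alone, and SGK1 at 5.99 to 7.46 overlapped vehicle.

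Among 44 genes listed as androgen-induced, 38 were tested and 19 rose against vehicle under the combination, with none lower (1.57% higher and 1.59% lower over all genes). The 6 untested were TRPM8, ORM1, ORM2, ADAM7, SNAI2 and TARP. The list median difference was 0.42, beside -0.0013 over all genes. This list, like the others, was drawn up with earlier results of these data known. Its share of calls therefore describes its members and is no independent test. Members dim in vehicle, such as KLK2, F5 and STEAP4, were tested because the brightness limit was set on the mean over all arrays. The same list had 36 members higher and a median of 2.12 with DHT alone, a comparison that shares the vehicle arrays. Against DHT alone 32 members fell under the combination (background 4.48% lower and 3.94% higher over all genes) and none rose. The 6 that were not called in that test were KLK3, KLK4, CAMKK2, FADS1, TSC22D1 and STEAP2. Members with smaller rises included HPGD, which breaks down prostaglandins (1.05, adjusted p = 0.0114, a call lost on leaving out any of 3 arrays), AZGP1, a secreted glycoprotein (0.90, adjusted p = 0.00883, lost without combination replicate 3), PLPP1, a lipid phosphatase (0.60), SORD, sorbitol dehydrogenase (0.48, a call lost after median centring, adjusted p = 0.0711), and CREB3L4, a membrane-bound transcription factor (0.47). The vehicle means of HPGD and AZGP1 lay under the brightness limit. Leaving out an array gave 15 to 18 members higher, and without combination replicate 1 STEAP2 was called lower.

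FKBP5, a co-chaperone of steroid receptors, rose little under the combination and much with DHT alone. It read 9.49, 9.38 and 9.53 in vehicle, 10.27, 10.18 and 10.21 under the combination, and 13.83, 13.78 and 13.75 with DHT alone. The arrays of the 3 groups did not overlap. The rise over vehicle was 0.75 ± 0.16 (adjusted p = 0.0118), or 1.69-fold, and the adjusted p was 0.0669 without vehicle replicate 2. The combination lay below DHT alone by a log2 difference of -3.57 (adjusted p = 8.58e-11), an 11.9-fold difference. FKBP5 also differed between the enzalutamide doses given with DHT, at -1.49 for 10 against 1 µM (adjusted p = 0.00031).

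SGK1, a kinase that is induced by steroid hormones, read 7.65, 6.97 and 7.23 in vehicle and 7.46, 5.99 and 6.79 under the combination, and these ranges overlapped. Its difference of -0.54 ± 0.35 was not called (adjusted p = 0.492), whereas DHT alone raised it by 3.32. STEAP4, a metalloreductase, read 6.94, 6.56 and 5.79 in vehicle and 6.80, 4.86 and 7.15 under the combination, under the brightness limit on average and overlapping. DHT alone took STEAP4 to 11.51, 11.37 and 11.05. NDRG1, a stress- and androgen-responsive protein, read 10.87, 10.97 and 10.98 in vehicle and 11.01, 10.69 and 11.04 under the combination. The NDRG1 difference was -0.03 ± 0.18 (adjusted p = 0.961), beside 2.09 with DHT alone. Also not called against vehicle were the transcription factor MAF (-0.0023 against 2.63 with DHT alone), the elongation factor partner EAF2 (0.04 against 2.25), the feedback inhibitor ERRFI1 (0.08 against 1.98), the condensin subunit NCAPD3 (0.30 against 2.93) and the small GTPase RHOU (0.33 against 3.28).

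**Figure D3:**
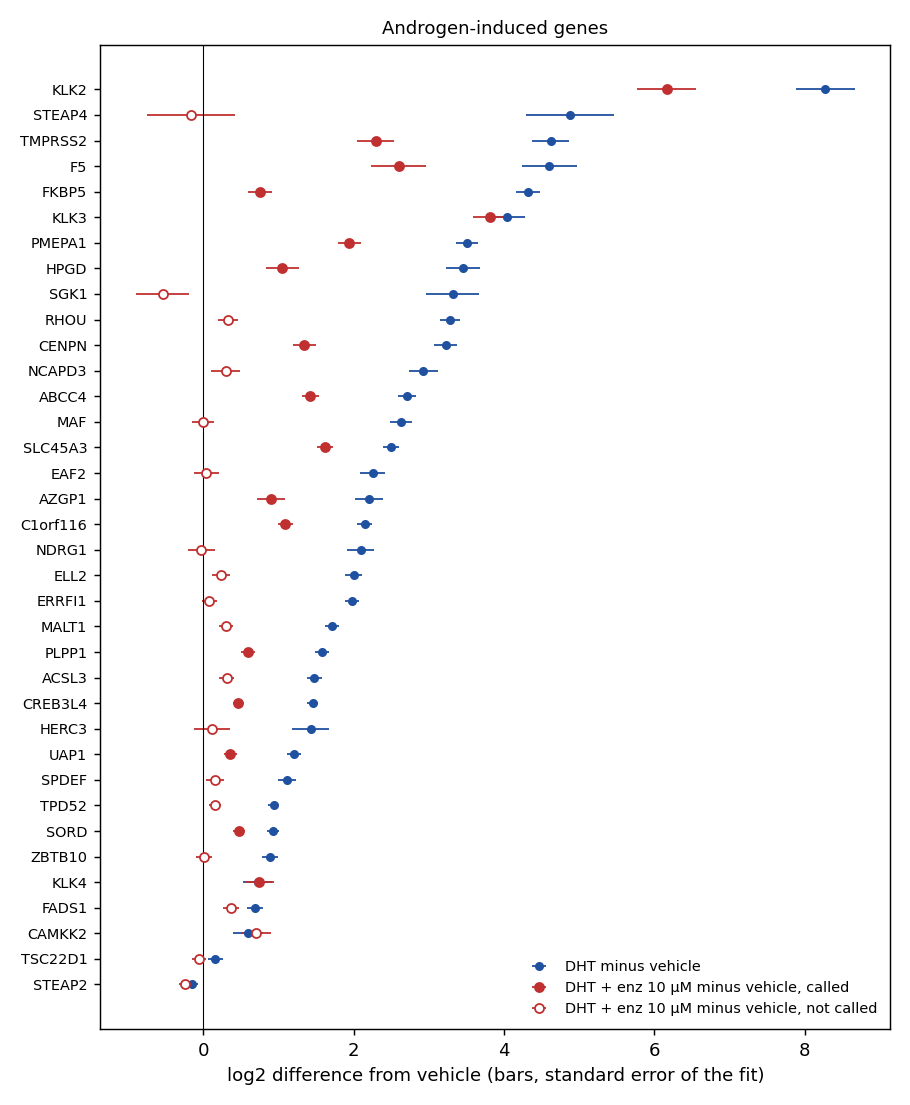
Difference from vehicle (x axis, log2, bars for the SE of the fit) for 36 of the 38 tested androgen-induced genes, blue for DHT alone and red for the combination, filled where called. All blue points but TSC22D1 and STEAP2 were called, and 17 red points were.

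Among 16 genes listed as androgen-repressed, 14 were tested and 4 fell under the combination, with none higher and a list median of -0.37 (1.59% lower over all genes). DHT alone lowered only 7 of the 14, raised 1 and left 6 uncalled, with a median of -0.60 (8.32% lower and 7.8% higher over all genes). Against DHT alone 5 members were higher and 1 lower under the combination (3.94% and 4.48% over all genes). Against 10 µM enzalutamide alone 6 were lower and none higher (1.46% and 1.36% over all genes). The untested were UGT2B10 and UGT2B11. UGT2B15, which glucuronidates DHT, read 14.06, 14.03 and 14.00 in vehicle and 13.18, 12.98 and 12.98 under the combination, without overlap. It fell by 0.98 ± 0.09 (adjusted p = 3.19e-06), and DHT alone brought it to 12.36, 12.68 and 12.59. Its relative UGT2B17 fell by 1.00 ± 0.14 (adjusted p = 0.000235). SI, sucrase-isomaltase, fell by 1.58 ± 0.18 (adjusted p = 2.18e-05). The 3 UGT2B genes are close in sequence, and signal shared between their probe sets was not tested.

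UGT2B28 fell by 0.91 ± 0.19 under the combination (adjusted p = 0.0112), from 10.96, 11.02 and 10.79 to 9.45, 10.28 and 10.31. With DHT alone it read 11.05, 10.82 and 10.75, which overlapped vehicle (difference -0.05, adjusted p = 0.908). The combination was below DHT alone by a log2 difference of -0.86 (adjusted p = 0.00745). The fall from vehicle was not called without vehicle replicate 2 (adjusted p = 0.0626) or without combination replicate 1 (adjusted p = 0.0539). Members not called included OPRK1, the kappa opioid receptor (-1.49, adjusted p = 0.0849) and DDC, which makes dopamine (-0.43, adjusted p = 0.0915).

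Outside that list, the largest falls included MAN1A1, a mannosidase that trims N-glycans, which read 9.98, 10.14 and 9.99 in vehicle and 8.03, 8.54 and 8.27 under the combination. The groups did not overlap, and the fall was 1.76 ± 0.18 (adjusted p = 9.19e-06), beside -3.18 with DHT alone, whose mean was under the brightness limit. ACP3, prostatic acid phosphatase, fell by 0.99 ± 0.11 (adjusted p = 1.28e-05). FGF13, a fibroblast growth factor homologue that acts inside the cell, fell by 1.18 ± 0.15 (adjusted p = 7.81e-05). PTPRR, a tyrosine phosphatase, fell by 1.03 ± 0.12 (adjusted p = 3.81e-05), and TULP4 fell by 1.06 ± 0.13 (adjusted p = 6.06e-05). MYLK, myosin light chain kinase, fell by 1.11 ± 0.12 (adjusted p = 1.56e-05), although 1 of its other probe sets above the limit differed upward. The rest of the 15 largest falls were CD200 (-1.64, not called without combination replicate 1), FLJ36779 (-1.47), BASP1 (-1.16), GCG (-1.14), LOC401052 (-1.13), STXBP5L (-1.04), SLC44A1 (-1.04), AMOTL1 (-1.03) and DEFB124. FLJ36779 lost its call on leaving out any of 5 arrays, LOC401052 any of 4, and BASP1 on leaving out vehicle replicate 1 (adjusted p = 0.0529). The combination means of CD200, BASP1, FLJ36779 and LOC401052 lay under the brightness limit.

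Several genes with a large fall under DHT alone were not called under the combination. The DHT means of SPTLC3, MID1 and LRRC31 were dimmer than the brightness limit, which leaves the size and rank of their falls under DHT uncertain. SPTLC3, a subunit of the enzyme that starts sphingolipid synthesis, differed from vehicle by -0.45 (adjusted p = 0.362), beside -3.15 with DHT alone. LRRN1, a leucine-rich repeat membrane protein, differed by -0.39 (adjusted p = 0.0577) beside -2.45, MID1 by -0.94 (adjusted p = 0.265) beside -2.97, and LRRC31 by -1.12 (adjusted p = 0.215) beside -3.27. AMIGO2, an adhesion protein, fell by 0.86 ± 0.18 (adjusted p = 0.0107) beside -2.92 with DHT alone, a call lost on leaving out any of 3 arrays and after median centring (adjusted p = 0.0537).

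DEFB124 read 9.59, 9.41 and 9.15 in vehicle and 8.04, 7.43 and 7.12 under the combination. It fell by 1.85 ± 0.39 (adjusted p = 0.00992), whereas DHT alone read 9.26, 9.15 and 8.90 (-0.28, adjusted p = 0.705). The combination was also below DHT alone (-1.57, adjusted p = 0.0139) and below 10 µM enzalutamide alone (-1.52, adjusted p = 0.0395). The fall from vehicle had an adjusted p of 0.0511 without vehicle replicate 1 and 0.0644 without combination replicate 3. The other DEFB124 probe set, with a mean under the brightness limit, differed by -0.02.

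Some genes lay near their DHT level under the combination. The 10 called genes nearest to their DHT level among those that differed from vehicle by at least 2-fold were GCG, BASP1, MYLK, GPR158, SLC4A4, AADAT, KLK3, SLC44A1, PEX10 and FGF13. SLC4A4, a sodium bicarbonate cotransporter, read 9.81, 9.93 and 9.86 in vehicle, 11.07, 10.99 and 10.93 under the combination and 11.04, 10.76 and 10.67 with DHT alone. The last 2 groups overlapped, and their difference was 0.17 (adjusted p = 0.35). GPR158, an orphan G-protein-coupled receptor, read 9.07, 8.90 and 8.67, then 9.96, 10.20 and 10.06, and with DHT alone 10.20, 10.32 and 10.04. GCG, the glucagon precursor, fell by 1.14 under either treatment, with 9.18, 9.13 and 8.52 in vehicle and 7.96, 7.37 and 8.09 under the combination. These genes were picked for that closeness, so it is a description of them. FGF13 alone of the 10 also differed from DHT alone in the test (0.59, adjusted p = 0.0168).

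Cholesterol genes rose in part. Of 23 tested members of the cholesterol synthesis list 8 rose and none fell, with a list median of 0.24, where 1.57% of all genes rose. DHT alone called 17 higher and 1 lower with a median of 0.69, where 7.8% of all genes were higher. SQLE, squalene epoxidase, read 10.08, 10.11 and 10.24 in vehicle and 10.84, 10.82 and 10.78 under the combination, a rise of 0.67 ± 0.09 (adjusted p = 0.000151). INSIG1, which holds back the sterol-sensing transcription factors, read 11.07, 11.30 and 11.23 and then 11.99, 11.81 and 11.72, a rise of 0.64 ± 0.13 (adjusted p = 0.00672). The groups did not overlap for either gene, and with DHT alone INSIG1 was higher still, at 12.56, 12.68 and 12.76. DHCR7, a sterol reductase, rose by 0.90, EBP, a sterol isomerase, by 0.45 and ACAT2, an acetoacetyl-CoA thiolase, by 0.41, the last a call lost after median centring (adjusted p = 0.118). Against DHT alone 11 members fell (4.48% over all genes), among them HMGCS1 (-0.48), IDI1 (-0.52) and FDFT1 (-0.61), early enzymes of the pathway that were not called against vehicle. Leaving out an array gave 5 or 6 members higher, and DHCR7 lost its call on leaving out any of the 6 and EBP on leaving out any of 5 of them.

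In the next lists the share of all genes that rose, for comparison, was 1.57%, and the share that fell was 1.59%. In fatty acid synthesis 3 of 19 rose (median 0.20), the elongases ELOVL7 (0.96, adjusted p = 7.72e-05), ELOVL6 (0.46) and ELOVL1 (0.41), of which ELOVL1 lost its call on leaving out any of the 6 arrays and ELOVL6 on leaving out any of 4 of them. Fatty acid synthase, FASN, was not called (0.24, adjusted p = 0.67). Ribosome biogenesis had 4 of 17 higher (median 0.36), MYC (0.65, adjusted p = 0.00414), NOP16 (0.86, adjusted p = 0.00477), UTP20 (0.51) and WDR12 (0.36). No member was called against DHT alone, where 3.94% of all genes were higher and 4.48% lower. MYC, a growth-promoting transcription factor, read 10.91, 10.93 and 11.03 in vehicle and 11.72, 11.54 and 11.56 under the combination, and these arrays did not overlap. UTP20 and WDR12 lost their calls on leaving out any of the 6 arrays. Glycan enzymes had GCNT1 (0.64), GALNT7 (0.56) and UAP1 (0.36) higher and MAN1A1 lower among 17 tested. Of these UAP1 lost its call on leaving out any of 5 arrays, and GCNT1 without vehicle replicate 1 (adjusted p = 0.0693) or combination replicate 3 (adjusted p = 0.0539).

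Other processes showed few calls. Against vehicle 1.57% of all genes rose and 1.59% fell. In the list of the unfolded protein response and secretion no member of 21 was called against vehicle (median 0.07), while 7 were lower than with DHT alone (4.48% over all genes), among them the chaperone cofactor DNAJB9 (-1.20) and the stress sensor ERN1 (-0.88). In polyamine metabolism 1 of 11 rose, SRM, spermidine synthase (0.51, adjusted p = 0.0489), a call lost on leaving out any of the 6 arrays. Of 13 genes of the glucocorticoid type of response FKBP5 rose and none fell, and 6 were lower than with DHT alone, again beside 4.48% over all genes. In glycolysis 1 of 17 rose, HK2, which phosphorylates glucose (0.82 ± 0.15, adjusted p = 0.0051). In DNA replication 1 of 19 rose, the helicase subunit MCM4, from 10.38, 10.47 and 10.43 to 11.00, 11.28 and 11.43 (0.81 ± 0.11, adjusted p = 0.000175).

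Among 18 G1 cell-cycle genes the kinase CDK2 rose (0.45) and cyclin CCNE2 fell (-0.46). Each call was lost on leaving out any of 4 of the 6 arrays, after median centring and over all probe sets. The CCNE2 call was also lost with no brightness filter (adjusted p = 0.0589) and with a replicate block in the limma fit (adjusted p = 0.0505). None of 24 mitosis genes, 18 amino acid supply genes, 8 AHR and PXR drug metabolism genes, 18 steroid receptors and coregulators or 16 housekeeping genes was called against vehicle. For these lists too, 1.57% of all genes rose and 1.59% fell. In the p53 and apoptosis list 1 of 15 was called, BAX, a pore-forming death protein, which read 9.01, 9.36 and 8.81 in vehicle and 8.62, 8.15 and 8.13 under the combination (-0.76, adjusted p = 0.0268). The BAX call was lost on leaving out any of 4 of the 6 arrays and after median centring (adjusted p = 0.137). Of 6 neuroendocrine and neuronal genes SYT4, a synaptotagmin, rose (0.60, adjusted p = 0.00548) and ENO2 fell (-0.48, adjusted p = 0.0252), the latter a call lost on leaving out any of the 6 arrays. COL1A1, a collagen of the fibroblast list, was the 1 called gene of the basal, fibroblast, leukocyte and endothelial markers (-0.74, adjusted p = 0.00284). The label gives a single cell line, and any part of other cell types was not tested.

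**Figure D4:**
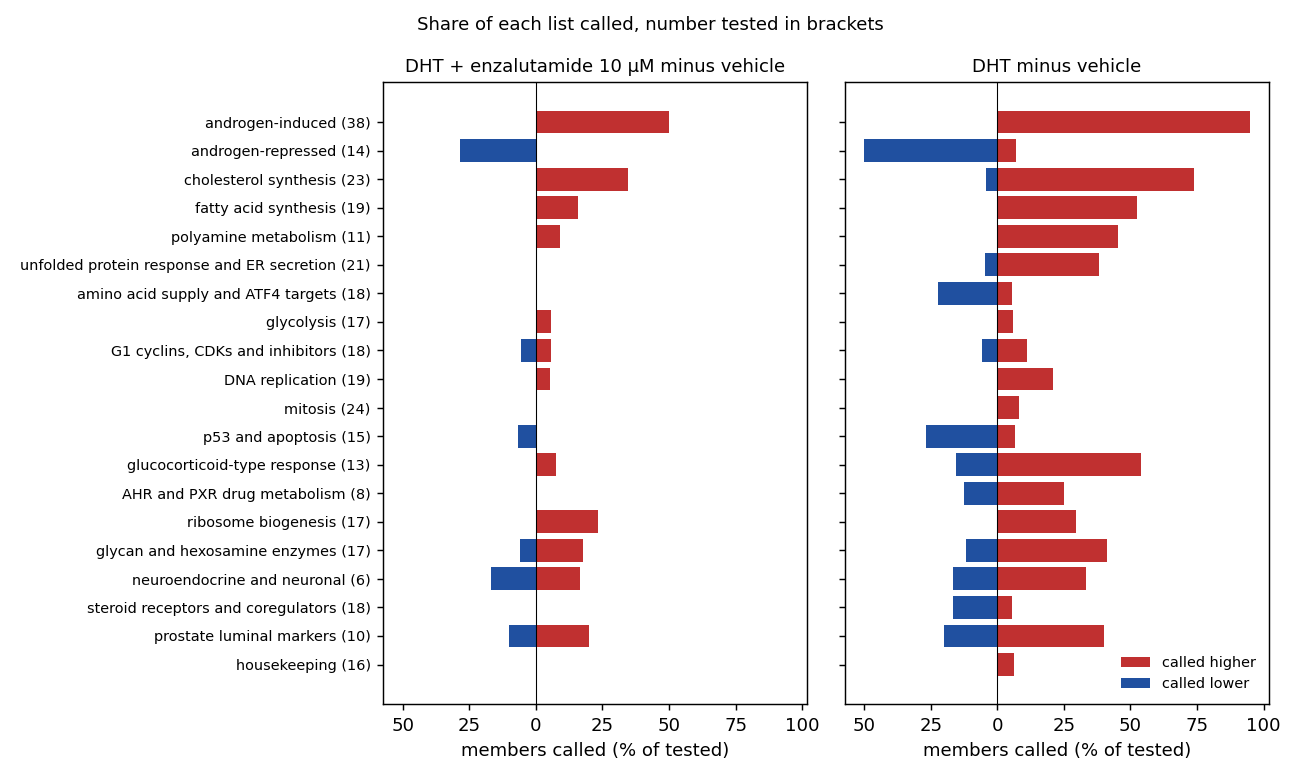
Share of each list called (x axis, percent of the tested members given in brackets), higher to the right and lower to the left, for the combination (left panel) and DHT alone (right panel) against the same vehicle arrays. Under the combination 19 of 38 androgen-induced genes and 8 of 23 cholesterol genes were higher.

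The remaining effect of DHT was also read against 10 µM enzalutamide alone, arrays that carry the same drug. Against these the combination had 173 genes higher (1.36%) and 186 lower (1.46%), led upward by KLK2 (4.40), KLK3 (2.60), F5 (2.56), TMPRSS2 (2.49) and NNMT (2.45). Led downward were OPRK1 (-2.0), the ubiquitin ligase MID1 (-1.74), IL1RN (-1.64), FLJ36779 (-1.61) and CD200 (-1.58). Leaving out 1 array took the 359 calls to 165 and 182 without combination replicates 3 and 2 and to 181 and 192 without enzalutamide replicates 1 and 2, and median centring took them to 123. Of the androgen-induced list 14 rose and none fell. SYT4 was lower than with the drug alone (-0.53, adjusted p = 0.0149) while higher than in vehicle. Its arrays read 13.34, 13.08 and 13.07 with the drug alone, 12.81, 12.50 and 12.58 under the combination and 11.96, 11.97 and 12.15 in vehicle. IL1RN, which blocks the interleukin 1 receptor, read 9.58, 9.69 and 9.28 in vehicle, 10.13, 10.31 and 10.27 with the drug alone and 8.63, 8.55 and 8.61 under the combination, all separate.

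Genes chosen by their difference between DHT and vehicle arrays could be read in these arrays, whose means did not enter that difference. Every array entered the shared estimate of spread and the mean used for the brightness limit and the choice of probe set. Neither the shares called nor the medians are therefore independent of the choice. F5 and NNMT, for example, passed the limit with means of 5.30 and 5.80 in vehicle and 5.34 and 5.90 with the drug alone. Of 179 genes that DHT raised by at least 2-fold, 56 (31.3%) were higher and 1 lower with the combination than with the drug alone, and their median difference was 0.38, beside 1.45 in the arrays that chose them and 0.02 over all genes. Of 179 genes that DHT lowered by at least 2-fold, 65 (36.3%) were lower and none higher, with a median of -0.50 beside -1.33 in the choosing arrays. Over all tested genes 1.36% were called higher and 1.46% lower with the combination than with the drug alone. For all 995 raised genes the median was 0.14, with 113 called higher (11.4%) and 2 lower. For all 1061 lowered genes it was -0.14, with 132 called lower (12.4%) and 1 higher.

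**Figure D5:**
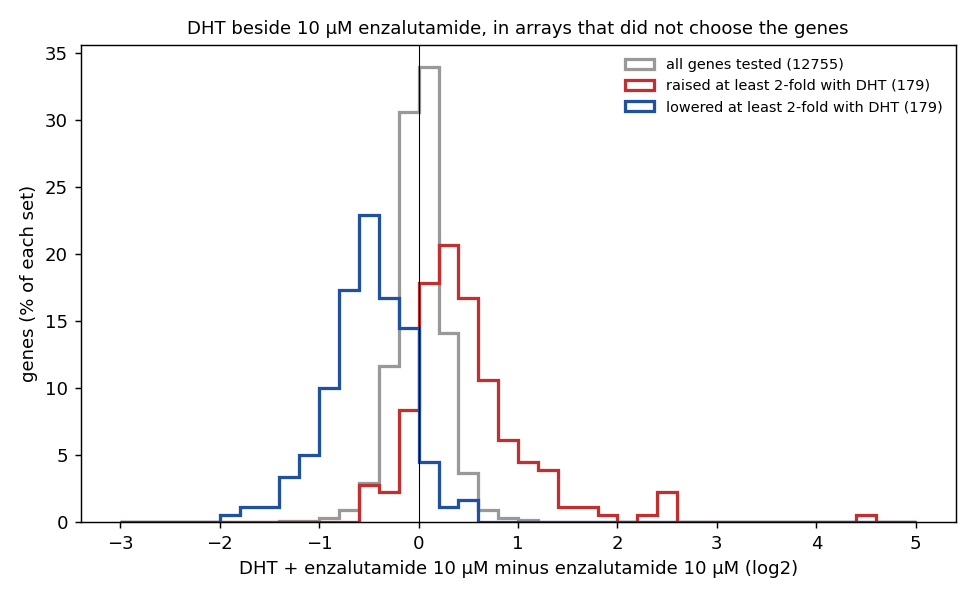
Distribution of the difference between the combination and 10 µM enzalutamide alone (x axis, log2) for all tested genes and for the genes that DHT alone raised or lowered by at least 2-fold against vehicle (y axis, percent of each set). The raised genes had a median of 0.38 and the lowered genes one of -0.50. The brightness limit that every gene passed was set on all arrays.

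The enzalutamide dose given with DHT separated 9 genes (0.0706% of those tested), 8 of them lower at 10 than at 1 µM (0.0627%), and 1024 genes had an unadjusted p under 0.05. The lower genes were FKBP5 (-1.49), TNFAIP8 (-0.91), CENPN (-0.83), PMEPA1 (-0.82), ABCC4 (-0.70), MALT1 (-0.58), CREB3L4 (-0.56) and PLPP1 (-0.53), and 7 of these belong to the androgen-induced list. Leaving out 1 array moved the count of 9 to 1, 5 and 3 without replicates 1, 2 and 3 of the 1 µM group and to 16, 2 and 2 without those of the combination. FKBP5 read 12.28, 11.56 and 11.28 with 1 µM, above the 10 µM arrays in every case. KLK3 read 14.48, 14.23 and 14.27 with 1 µM, and its difference between doses of -0.36 was not called (adjusted p = 0.721). GNG7, a G-protein γ subunit, was the 1 gene higher at the higher dose (1.03, adjusted p = 0.04), with 9.14, 9.10 and 9.16 at 1 µM and 10.17, 10.02 and 10.31 at 10 µM. No gene was called higher at the higher dose on leaving out any array of the 1 µM group or combination replicate 2 or 3, with no brightness filter, over all probe sets, with quantile normalization or with no intensity trend. GNG7 also exceeded vehicle (0.82, adjusted p = 0.0169), a call lost on leaving out any of 4 of the 6 arrays, and 1 of its other probe sets above the limit differed downward. TNFAIP8, an apoptosis regulator, and GNG7 were named after their values were seen. In the authors' deposited table no probe set was marked between the doses.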

How the data were processed

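LNCaP cells in 6 treatment groups of 3 arrays were measured on single-colour arrays, 54675 probe sets each, of a model that the sources used here do not name. The deposited values are log2 signals, per the file headers, and MAS5 is named without a version, per the submitters' processing notes. After undoing the log, the 2% trimmed mean was 500.1 on every array, so arrays shared a scale before deposit. The authors' deposited table also gives a p-value for each probe set, per the file headers, which was not used, and marks of passing pairs. It listed 3717 probe sets, and its log2 ratios gave direction only. The number of arrays limits the precision.

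Gene symbols were updated through RefSeq (GRCh38.p14), and 62 control probe sets were left out. limma 3.58.1 in R 4.3.3 fitted 6 group means to 18 arrays with 12 residual degrees of freedom, using eBayes with an intensity trend, two-sided, and Benjamini-Hochberg adjustment over 12755 genes. Errors are SEs of that fit. Comparisons with DHT, with enzalutamide 10 µM and with DHT plus enzalutamide 1 µM share the combination arrays, and both comparisons with vehicle share its arrays.

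Named genes were the 15 largest called rises and falls without overlap, the 10 largest each way with DHT, called list members (up to 8, and all of the androgen lists), the 5 largest each way against the drug alone, the 10 nearest to DHT, and a few known targets. Some of them are not reported here by name. The members and lists were chosen with earlier results of these data known. The fit was tested on simulated data. Replicate numbers did not pair the combination with vehicle, since the deviations of same-numbered arrays correlated at -0.05, -0.07 and 0.05. Alternatives were no brightness filter, all probe sets, median centring, quantile normalization, no trend, only the groups compared, a replicate block, and arrays left out. Figures were drawn with matplotlib 3.10.9.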

Additional observations from a re-analysis of the deposited data

How the results depend on the processing

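Of 110 named genes 76 were called against vehicle and 48 of these were called under every alternative. There were 1582 values under alternatives, most of single genes and the rest counts of list members. Among the single-gene values 144 lost and 26 gained the call. Of those called in the main fit or in the alternative, 0 reversed in sign. Signs of genes called in neither did change, as for STEAP4 (-0.60 to 0.55 over the alternatives) and NDRG1 (-0.09 to 0.08). The counts of called genes moved more. With arrays centred on their medians, which shifted the median difference from vehicle by 0.02, the combination called 167 genes against vehicle, 574 against DHT (31.2% higher), 123 against enzalutamide 10 µM, and DHT alone called 1416 against vehicle (64.6% higher). With only the groups compared in the fit the counts were 1098 against vehicle, 714 against DHT and 27 against DHT with enzalutamide 1 µM. Without the 2 arrays of high ACTB ratio they were 769 against vehicle, sharing all 403 genes, 859 against enzalutamide 10 µM and 31 between the doses. Between the doses, quantile normalization gave 5 genes, none of them higher, and no intensity trend gave 3. Over all probe sets DHT alone called 3124. Leaving out 1 array gave 201 to 295 against vehicle, 673 to 1008 against DHT (673 without combination replicate 3, 695 without replicate 2), 165 to 327 against enzalutamide 10 µM (165 and 182 without combination replicates 3 and 2, 181 and 192 without enzalutamide replicates 1 and 2), 1 to 16 between the doses (1, 5 and 3 without replicates 1, 2 and 3 of DHT with enzalutamide 1 µM, and 16, 2 and 2 without those of the combination) and 1511 to 2039 for DHT alone. A replicate block gave 425, 1154, 390, 7 and 2162 genes in the same order of comparisons, against 403, 1074, 359, 9 and 2056 without it, and among the named genes it ended the call of CCNE2 alone (adjusted p = 0.0505). Of the lists, cholesterol synthesis had 5 to 10 members higher, androgen-induced 15 to 23, fatty acid synthesis 1 to 7 and ribosome biogenesis 2 to 6, list counts under the alternatives being added after seeing the data. The cause of these movements was not tested. Signals under the brightness limit, as for KLK2, F5 and NNMT in vehicle, leave the size of the difference uncertain.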
